A study of Homo sapiens with 24 samples.

Results

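Medium conditioned by mouse embryonic fibroblasts was compared with unconditioned medium in feeder-free H9 cells, a human embryonic stem cell line, by microarray. The arrays were chosen by their titles: 3 biological replicates of H9 in conditioned medium and 3 in unconditioned medium, 6 of the 24 arrays of the series, and no measured value entered that choice. Per the labels the conditioned arrays had 5 days of treatment and the unconditioned arrays were the control, whereas the design text of the series gives 24 hours for both media, so the length of the exposure is not settled here. The study asked whether factors secreted by the feeder cells alter the gene expression of human pluripotent cells. All 6 cultures were feeder-free and without inhibitor, and they come from 1 line. Beside them stand 6 arrays of HSF1, a second human embryonic stem cell line, in the same 2 media, and the H9 arrays grown with or without feeders for 5 days, in DMSO or in 250 nM AZD3965, which blocks the lactate transporter MCT1, with 1 array for each of these 4 conditions. The p-values rest on the spread between biological replicates, with 1 estimate shared by the H9 and HSF1 arrays of the 2 media.

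Human embryonic stem cells in standard culture resemble the epiblast shortly after implantation, a state called primed. They keep their identity through fibroblast growth factor (FGF), which acts through the kinase ERK, and through Activin or Nodal, which act through SMAD2 and SMAD3; bone morphogenetic proteins (BMPs) signal through other SMAD proteins and switch on the ID genes. Fibroblast-conditioned medium is a classical way to grow such cells without direct contact with feeders. Pathway activity is read here only from the RNA of genes known as its targets.

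Levels are log2 values from RMA (background correction, quantile normalization and 1 summary value per probe set), so a difference of 1 is a 2-fold change. Array medians in H9 lay between 6.09 and 6.15, and below about that level background limits a value. Of 19775 genes with a probe set of their own, 16572 passed a filter (above 5 on at least 3 of the 12 medium arrays) and were tested with limma. Arrays carry no depth, and their number limits the precision. The 3 unconditioned H9 arrays did not form a uniform group. Their ACTB control probe sets, which lie at the 3-prime and the 5-prime end of the actin transcript and drift apart when RNA is degraded, differed by 1.07 in replicate 1 but by 3.25 and 2.89 in replicates 2 and 3. The conditioned arrays gave 1.84, 1.42 and 1.61, and the 6 HSF1 arrays 1.52 to 1.84. GAPDH gave 0.036, 0.68 and 0.63 in unconditioned and 0.20, 0.037 and 0.023 in conditioned medium. Over all 54675 probe sets, unconditioned replicate 1 correlated more closely with the conditioned arrays (r = 0.9937 to 0.9951) than with its own group (0.9923 and 0.9925). On the first principal component of the 6 arrays over the same probe sets, which held 50.8% of the variance, it scored -4.59. The other unconditioned arrays scored 38.0 and 44.2 and the conditioned ones -35.3 to -21.0. Results are therefore also given against unconditioned replicate 1 alone, where limma assumes that the lone array varies like the other groups. Precision is lower with a lone array, so a call can be lost there even where the difference hardly changes.

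**Figure D1:**
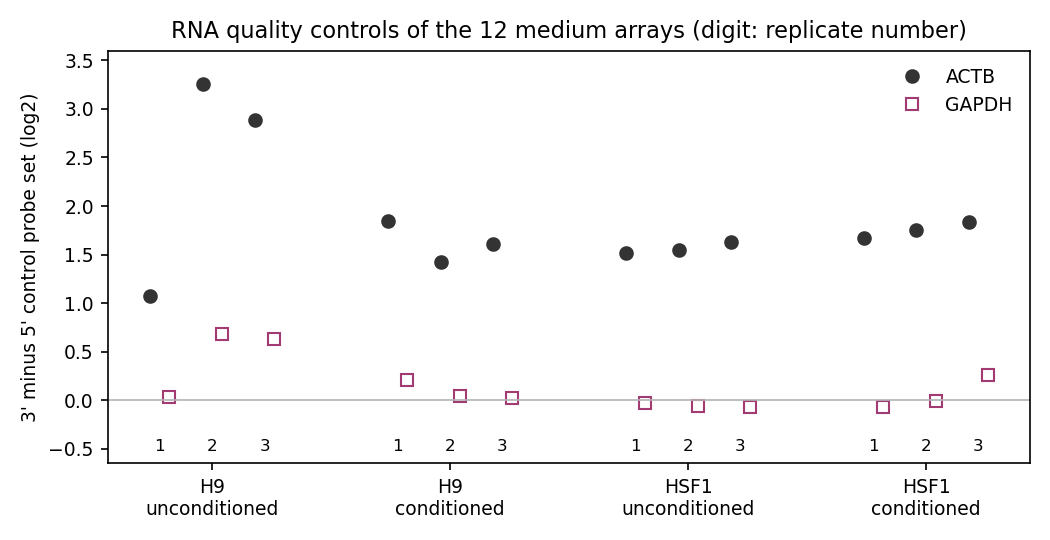
The log2 difference between the 3-prime and the 5-prime control probe set is plotted for ACTB (filled circles) and GAPDH (open squares) on each of the 12 medium arrays, with the replicate number under each pair of points. Replicates 2 and 3 of H9 in unconditioned medium lie above the 10 others for both genes, with ACTB at 3.25 and 2.89.

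The cells carried markers of pluripotent stem cells at a high level on every array: 9 of 11 such markers had a probe set, with a mean log2 level of 12.4 to 12.6 on each H9 array, and POU5F1 is not analysed here. Of these 9, SOX2, NANOG and SALL4 passed the test and were higher in conditioned medium. Among all genes tested 3.45% were called higher and 13% lower, the shares beside which the marker counts here stand. The summed linear level of 14 fibroblast markers was 9321 to 10747 in unconditioned and 10081 to 10878 in conditioned medium, so the groups overlapped, and of 12 tested 1 was higher and 2 were lower. The mean log2 level of these markers was 7.53 to 7.58 on each array. VIM, THY1, COL1A2, FN1 and COL1A1 had unconditioned means of 11.28, 11.21, 10.68, 10.50 and 9.95, whereas DCN, PRRX1 and COL3A1 lay below the array medians in both media (5.78, 5.00 and 4.85 in unconditioned medium). Of the trophoblast, neural, endoderm and mesoderm markers (13 tested in all), AFP and MESP1 passed and were higher in conditioned medium. In bulk RNA, fewer cells of a type and less RNA per cell cannot be told apart.

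In conditioned medium 2720 of the 16572 genes tested, or 16.4%, differed from unconditioned medium at an adjusted p under 0.05. Of these 572 were higher, 3.45% of the genes tested, and 2148 were lower, 13%. Changes were mostly small: 31 genes rose and 44 fell by at least 2-fold, and 2470 of the genes called had groups that did not overlap, against 4823 (29.1%) among all genes tested. The share of calls in the higher direction was 21.0% as deposited, 37.1% after another quantile normalization and 14.1% after a shift of each array to the common median, and the median difference over all genes was -0.03, 0.01 and -0.06. Against unconditioned replicate 1 alone, 656 genes passed (3.96%), 227 higher (1.37%) and 429 lower (2.59%). Of the 572 and 2148 genes, 173 and 405 passed in the same direction there, and 4 of the 2720 had the opposite sign. The conditioned arrays and replicate 1 are the same in both comparisons, so these shared calls are no independent check. The count depended on single arrays: it was 5295 without unconditioned replicate 1, 1777 without replicate 2 and 1328 without replicate 3, and 1794 and 1631 without conditioned replicates 2 and 3. When the fit also held the ACTB difference, 1469 genes passed, 1351 of them among the 2720. With the spread estimated from the 6 H9 arrays alone, without the HSF1 arrays, 1151 genes passed. The median SD over genes was 0.13 and 0.094 in unconditioned and conditioned H9, and 0.064 and 0.093 in unconditioned and conditioned HSF1.

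The 12 largest rises were taken among genes whose groups did not overlap and whose higher group had a mean of at least 7. They were those of ID1, CAV1, MACC1-OT1, LEFTY1, LINC00458, MT1M, INSM1, ANXA1, STOX2, DACT1, PRDM14 and NODAL. Their differences were 1.27 to 1.98 (limma adjusted p = 3.01e-08 to 0.000115). TFAP2A, with a rise of 1.63, did not reach that mean and is given with its list. ID1, an inhibitor of helix-loop-helix transcription factors and a classical BMP target on chromosome 20, read 10.46, 9.53 and 9.81 in unconditioned and 11.57, 12.02 and 12.15 in conditioned medium. Unconditioned replicate 1 was the highest of its group but stayed below every conditioned array. The difference was 1.98 (SE 0.18, adjusted p = 2.5e-06), or 3.95-fold, and 1.46 against replicate 1 alone. CAV1, which encodes the coat protein caveolin-1 of membrane caveolae, read 6.76, 7.21 and 7.23 and 9.20, 9.05 and 8.90. Here replicate 1 was the lowest array, and the difference was 1.98 (SE 0.14, adjusted p = 1.4e-07), or 3.95-fold, and 2.29 against replicate 1. LEFTY1, a secreted inhibitor of Nodal, stood at 6.71, 6.94 and 6.85 without and at 8.84, 8.50 and 8.37 with conditioning. All 3 conditioned arrays were above all unconditioned arrays by more than either group's range, with a difference of 1.74 (SE 0.14, adjusted p = 8.5e-07). NODAL itself, the ligand that LEFTY1 restrains, had values of 6.76, 6.72 and 6.92 and 8.21, 7.98 and 8.02, a difference of 1.27 (SE 0.088, adjusted p = 1.3e-07) with narrow groups. Over 17 alternative settings the NODAL difference ranged from 0.81 to 1.35. PRDM14, a transcription factor of the pluripotency network, stood at 10.11, 9.99 and 9.28 and 11.09, 11.14 and 11.15. Its conditioned arrays were almost equal, unconditioned replicate 3 was the lowest array, and the difference was 1.33 (SE 0.15, adjusted p = 1.7e-05), with 1.01 against replicate 1.

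Among the other large rises were 2 genes of long noncoding RNAs. LINC00458, a noncoding RNA known from human pluripotent cells, gave 6.65, 6.43 and 6.45 in unconditioned and 8.05, 8.33 and 8.35 in conditioned medium (difference 1.73, SE 0.11). MACC1-OT1 gave 8.33, 8.41 and 8.71 and 10.28, 10.23 and 10.27, with conditioned arrays that were almost equal (difference 1.77, SE 0.10). INSM1, a zinc-finger factor of neuroendocrine cells, ANXA1, which encodes the phospholipid-binding protein annexin A1, and DACT1, which modulates WNT signalling, started at or below the array medians. Their unconditioned means were 5.34, 5.75 and 6.13 and their conditioned means 7.04, 7.37 and 7.53, so their differences of 1.69, 1.61 and 1.40 give no exact fold. Only 1 of the 2 ANXA1 probe sets rose, and averaged over all probe sets the differences of ANXA1 and INSM1 were 0.80 and 0.98. STOX2 gave 8.15, 8.45 and 7.49 and 9.54, 9.61 and 9.54 (difference 1.53, SE 0.16). Its unconditioned arrays were spread widely while its conditioned arrays were almost equal.

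**Figure D2:**
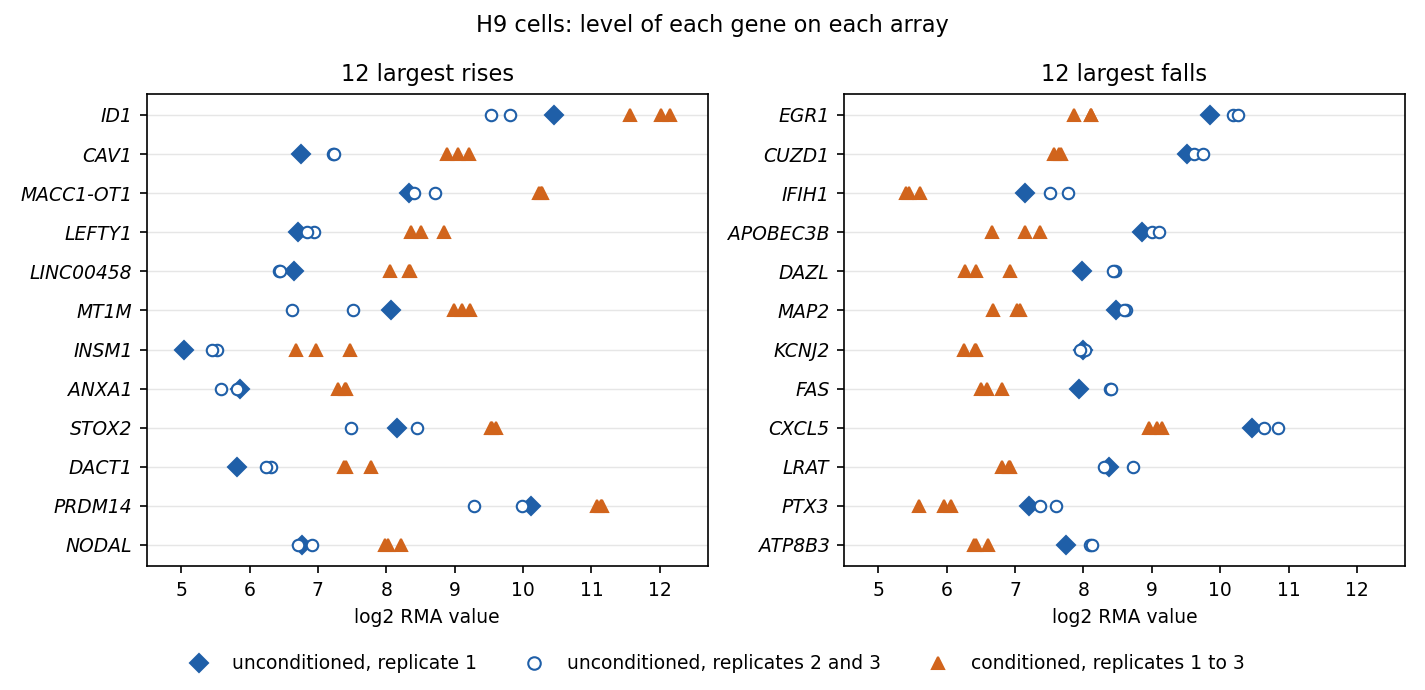
The log2 level on each of the 6 H9 arrays is plotted for the 12 largest rises (left) and the 12 largest falls (right). These are the largest among genes with a mean of at least 7 in the higher group. Unconditioned replicate 1 is a diamond, unconditioned replicates 2 and 3 are open circles and the conditioned arrays are triangles. The conditioned arrays lie apart from all unconditioned arrays for each gene, as the naming rule requires, and the diamond is shifted toward the triangles for genes such as ID1, MT1M and IFIH1 and away from them for CAV1, INSM1 and DACT1.

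The largest falls by the same rule were those of EGR1, CUZD1, IFIH1, APOBEC3B, DAZL, MAP2, KCNJ2, FAS, CXCL5, LRAT, PTX3 and ATP8B3. They lay between -2.07 and -1.50 (limma adjusted p = 2.72e-10 to 4.72e-06). EGR1, an immediate early transcription factor that is switched on within minutes of ERK activation, read 9.85, 10.19 and 10.26 in unconditioned and 7.86, 8.11 and 8.12 in conditioned medium. The gap between the groups was several times the range of either, and the difference was -2.07 (SE 0.11, adjusted p = 1.1e-08), with all 3 of its probe sets lower. CUZD1 read 9.51, 9.61 and 9.74 and 7.64, 7.67 and 7.57, the smallest adjusted p of the H9 comparison (2.7e-10, difference -1.99, SE 0.077). IFIH1, which encodes the double-stranded RNA sensor MDA5, fell from 7.15, 7.78 and 7.51 to 5.61, 5.41 and 5.45. Its conditioned arrays lay below the array median, so the difference of -1.99 (SE 0.13) gives no exact fold, and averaged over its 3 probe sets it was -0.78. APOBEC3B, a cytidine deaminase that edits DNA, gave 8.85, 8.998 and 9.10 and 6.66, 7.37 and 7.15 (difference -1.93, SE 0.14). FAS, a death receptor and p53 target, gave 7.94, 8.39 and 8.40 and 6.59, 6.81 and 6.50, and all 5 of its probe sets were lower (difference -1.61, SE 0.13). In both genes every unconditioned array was above every conditioned array by at least 1 unit.

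The other large falls came from genes of varied function. CXCL5, a chemokine that attracts neutrophils, gave 10.46, 10.84 and 10.64 and 8.96, 9.16 and 9.07 (difference -1.59, SE 0.11; its 3 probe sets averaged -0.80). LRAT, the enzyme that esterifies retinol for storage, gave 8.37, 8.72 and 8.30 and 6.92, 6.92 and 6.80 (difference -1.58, SE 0.10). DAZL, an RNA-binding protein of germ cells, gave 7.98, 8.46 and 8.44 and 6.27, 6.93 and 6.43 (difference -1.75, SE 0.16). MAP2, a microtubule-associated protein of neurons, KCNJ2, an inward rectifier potassium channel, PTX3, a pentraxin of innate immunity, and ATP8B3, a member of the lipid flippase family, differed by -1.64, -1.62, -1.51 and -1.50. For ATP8B3 1 of 3 probe sets pointed the other way, and their mean gave -0.45. Against unconditioned replicate 1 alone EGR1 differed by -1.83, CUZD1 by -1.88, FAS by -1.31 and KCNJ2 by -1.63. The naming rule had already required a gap to that array, so these differences are no independent check.

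Targets of FGF and ERK were mostly lower. Of 19 tested members 13 fell and 1 rose, where 13% of all genes were called lower and 3.45% higher. The list median was -0.53 against -0.03 over all genes. Feedback inhibitors of the pathway made up much of the list. DUSP6, a phosphatase that inactivates ERK, stood at 11.36, 11.54 and 11.41 in unconditioned and 10.86, 10.68 and 10.63 in conditioned medium. The groups did not overlap, and the difference was -0.71 (SE 0.088, adjusted p = 5.0e-05). The phosphatases DUSP4 and DUSP5 differed by -0.74 and -0.59, and the Sprouty and SPRED inhibitors SPRY4, SPRY2, SPRED2 and SPRED1 by -0.64, -0.52, -0.60 and -0.53. SPRY4 read 10.43, 10.21 and 10.25 and 9.71, 9.58 and 9.68. Here unconditioned replicate 1 was the highest array of all, and the difference against it alone was -0.77. Among the transcription factors of the list, ETV5 fell from 8.99, 9.19 and 9.23 to 8.44, 8.26 and 8.27 (difference -0.81, SE 0.079, adjusted p = 4.8e-06; its 5 probe sets averaged -0.31). EGR1, FOSL1 and ETV4 differed by -2.07, -0.57 and -0.24. PHLDA1 and the receptor EPHA2 differed by -0.71 and -0.25, and the exception was IER3, an early response gene, at 0.29 (SE 0.080, adjusted p = 0.024). FOS differed by -0.14 (adjusted p = 0.423) and SPRY1 by -0.16 (adjusted p = 0.21), and neither passed. Against unconditioned replicate 1 alone the list median was -0.31 against -0.02 over all genes, and 8 members passed as lower; FGF2, the main ligand of these cultures, passed as higher there (0.44) but not against all 3 unconditioned arrays (0.13, adjusted p = 0.416). Of the 14 members called, 8 passed in each of the 17 alternatives run, and ETV4, EPHA2, DUSP5 and IER3 lost the call when single arrays were left out. Averaged over all probe sets SPRED2 and ETV4 lost it too, with SPRED2 at -0.10.

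The promoter of EGR1 is shown because this gene had the largest fall and because serum response factor, through which ERK acts on immediate early genes, binds CArG boxes. The sequence is RefSeq's on GRCh38.p14, chr5:138465229-138465528, plus strand, from 250 bases before to 50 after the start of the gene, with CArG boxes in capitals.
EGR1: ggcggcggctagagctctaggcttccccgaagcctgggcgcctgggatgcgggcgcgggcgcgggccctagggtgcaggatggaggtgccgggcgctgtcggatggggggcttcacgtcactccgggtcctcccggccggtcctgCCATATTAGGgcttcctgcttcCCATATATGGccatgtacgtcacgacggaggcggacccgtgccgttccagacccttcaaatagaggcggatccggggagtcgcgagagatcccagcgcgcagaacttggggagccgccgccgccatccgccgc
The window holds 2 matches, each read on both strands since the box is palindromic, and 1.29% of the 35116 promoter windows of the same length hold at least 1 (0.0313% hold as many). A match describes the sequence and was not tested as a binding site.

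Genes of the Nodal and TGF-beta pathway were mostly higher. Of 17 tested members 9 rose and 3 fell, with a median of 0.31, where 3.45% of all genes were called higher and 13% lower. The rises included the ligand NODAL and the inhibitors LEFTY1 and FST, which encodes follistatin, an antagonist of activin. FST read 8.80, 8.82 and 8.76 in unconditioned and 9.57, 9.66 and 9.93 in conditioned medium. No array of one group reached into the other, and the difference was 0.93 (SE 0.089, adjusted p = 4.0e-06). SKIL, a transcriptional corepressor of SMAD proteins, read 11.10, 11.32 and 11.14 and 12.10, 12.08 and 11.82, a difference of 0.81 (SE 0.077). The inhibitory SMAD7 and the decoy receptor BAMBI, which both pathways induce, differed by 0.70 and 0.77, and PMEPA1, a negative regulator of TGF-beta signalling, by 0.48. GDF3, a ligand of the same family, and CCN2, a matricellular protein, differed by 0.47 and 0.23. The 3 falls were those of INHBA, which encodes a subunit of activin A, and of TGFBI and LTBP1, which encode extracellular proteins linked to TGF-beta. INHBA fell from 7.31, 7.31 and 7.06 to 6.09, 6.48 and 6.20 (-0.97, SE 0.12, adjusted p = 6.4e-05), and TGFBI and LTBP1 differed by -0.59 and -0.23. With the mean of its 2 probe sets LTBP1 differed by 0.0031. Against unconditioned replicate 1 the median was 0.28 with 7 members higher and 1 lower, and 8 of the 12 called passed in each of 17 alternatives. TGFBI, CCN2 and LTBP1 each lost the call without unconditioned replicate 2, without replicate 3 and without conditioned replicate 1, and with arrays shifted to a common median CCN2 lost it too.

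Of 16 tested BMP targets 7 rose and 0 fell in limma (8 and 2 at an unadjusted p under 0.05), with a median of 0.27, where 3.45% of all genes were called higher and 13% lower. ID1 led the list, and ID4, a relative of ID1, read 8.16, 8.90 and 8.96 in unconditioned and 9.35, 9.69 and 9.70 in conditioned medium. Unconditioned replicate 1 was the lowest array, and the difference was 0.91 (SE 0.15, adjusted p = 0.000897), with 1.42 against replicate 1. The ligands BMP4 and BMP2 differed by 0.59 and 0.46, and the inhibitory SMAD6 by 0.49 (adjusted p = 0.00132, 0.00954 and 0.00238). The remaining rises, SMAD7 and BAMBI (0.70 and 0.77), stand on this list and among the Nodal and TGF-beta targets, so the 2 lists share them. ID3 and ID2, further targets of the same kind, did not pass, with differences of -0.32 (SE 0.12, adjusted p = 0.0833) and 0.39 (SE 0.15, adjusted p = 0.083). The unconditioned arrays of ID3 read 11.11, 10.50 and 10.77 and the conditioned arrays 10.27, 10.55 and 10.62. Against unconditioned replicate 1 the list median was 0.03, with 5 members higher and 1 lower, where ID3 was the member called lower (-0.64) and BMP4 and BMP2, at 0.36 and 0.30, lost the call.

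Metallothioneins, small cysteine-rich proteins that bind zinc and copper and are induced by metals and glucocorticoids, had the highest list median, 0.99. Of 8 tested genes 7 rose and 0 fell in limma (7 and 0 at an unadjusted p under 0.05), where 3.45% of all genes were called higher and 13% lower. MT1M read 8.08, 7.52 and 6.63 in unconditioned and 8.99, 9.10 and 9.23 in conditioned medium. Its unconditioned arrays were spread widely with replicate 1 on top, and the difference was 1.70 (SE 0.23, adjusted p = 0.000115) and 1.03 against replicate 1. MT1X read 12.68, 12.16 and 12.08 and 13.31, 13.36 and 13.47 (difference 1.07, SE 0.11). MT2A read 12.72, 12.28 and 12.08 and 13.20, 13.19 and 13.20 (difference 0.83, SE 0.11). In each of these genes replicate 1 was nearest to the conditioned arrays without reaching them. MT1G, MT1F, MT1E and MT1H differed by 1.07, 1.02, 0.96 and 0.85, and MT3, a form best known from brain, by 0.18 (adjusted p = 0.398), which did not pass. All 7 rises passed in each of 17 alternatives, but they were smaller against unconditioned replicate 1, with a list median of 0.61, 0.39 for MT1E and 0.73 for MT1F. The genes are near-identical neighbours on chromosome 16 and their probes can bind more than 1 of them, so these 7 rises are not 7 independent measurements.

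Promoters of the metallothioneins are shown because these genes rose together and carry metal response elements, the sites of the zinc-sensing factor MTF1. Of 9 genes of the list, 3 matched an entry of the promoter table. Sequences are RefSeq's on GRCh38.p14, plus strand, from 250 bases before to 50 after the start: MT1H at chr16:56669564-56669863, MT1X at chr16:56682220-56682519 and MT2A at chr16:56608334-56608633. Capitals mark the forms TGCACNC and TGCGCNC on either strand.
MT1H: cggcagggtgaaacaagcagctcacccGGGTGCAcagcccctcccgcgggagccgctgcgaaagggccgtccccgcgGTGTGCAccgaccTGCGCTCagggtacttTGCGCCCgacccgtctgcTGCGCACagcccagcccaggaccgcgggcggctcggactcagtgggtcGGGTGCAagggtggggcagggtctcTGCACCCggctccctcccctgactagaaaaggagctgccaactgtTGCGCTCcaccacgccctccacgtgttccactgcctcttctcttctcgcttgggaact
MT1X: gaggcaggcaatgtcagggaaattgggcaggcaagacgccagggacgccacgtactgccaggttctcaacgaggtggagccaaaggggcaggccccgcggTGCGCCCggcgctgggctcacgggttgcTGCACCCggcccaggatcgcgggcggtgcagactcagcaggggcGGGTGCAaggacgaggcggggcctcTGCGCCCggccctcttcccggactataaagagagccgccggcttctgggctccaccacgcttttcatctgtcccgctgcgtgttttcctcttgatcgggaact
MT2A: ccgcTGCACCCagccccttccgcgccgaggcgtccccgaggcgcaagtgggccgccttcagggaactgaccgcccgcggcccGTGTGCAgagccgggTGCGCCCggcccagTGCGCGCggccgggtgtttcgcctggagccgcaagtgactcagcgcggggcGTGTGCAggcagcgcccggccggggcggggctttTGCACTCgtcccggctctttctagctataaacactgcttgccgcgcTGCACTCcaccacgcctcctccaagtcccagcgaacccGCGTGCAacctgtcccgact
The windows of MT1H and MT2A hold 8 matches each, 5 forward and 3 reverse, and that of MT1X holds 4. At least 1 match occurs in 29.6% of the 35116 promoter windows, 8 or more in 0.0199% and 4 or more in 0.601%. Matches describe the letters, and binding was not measured.

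**Figure D3:**
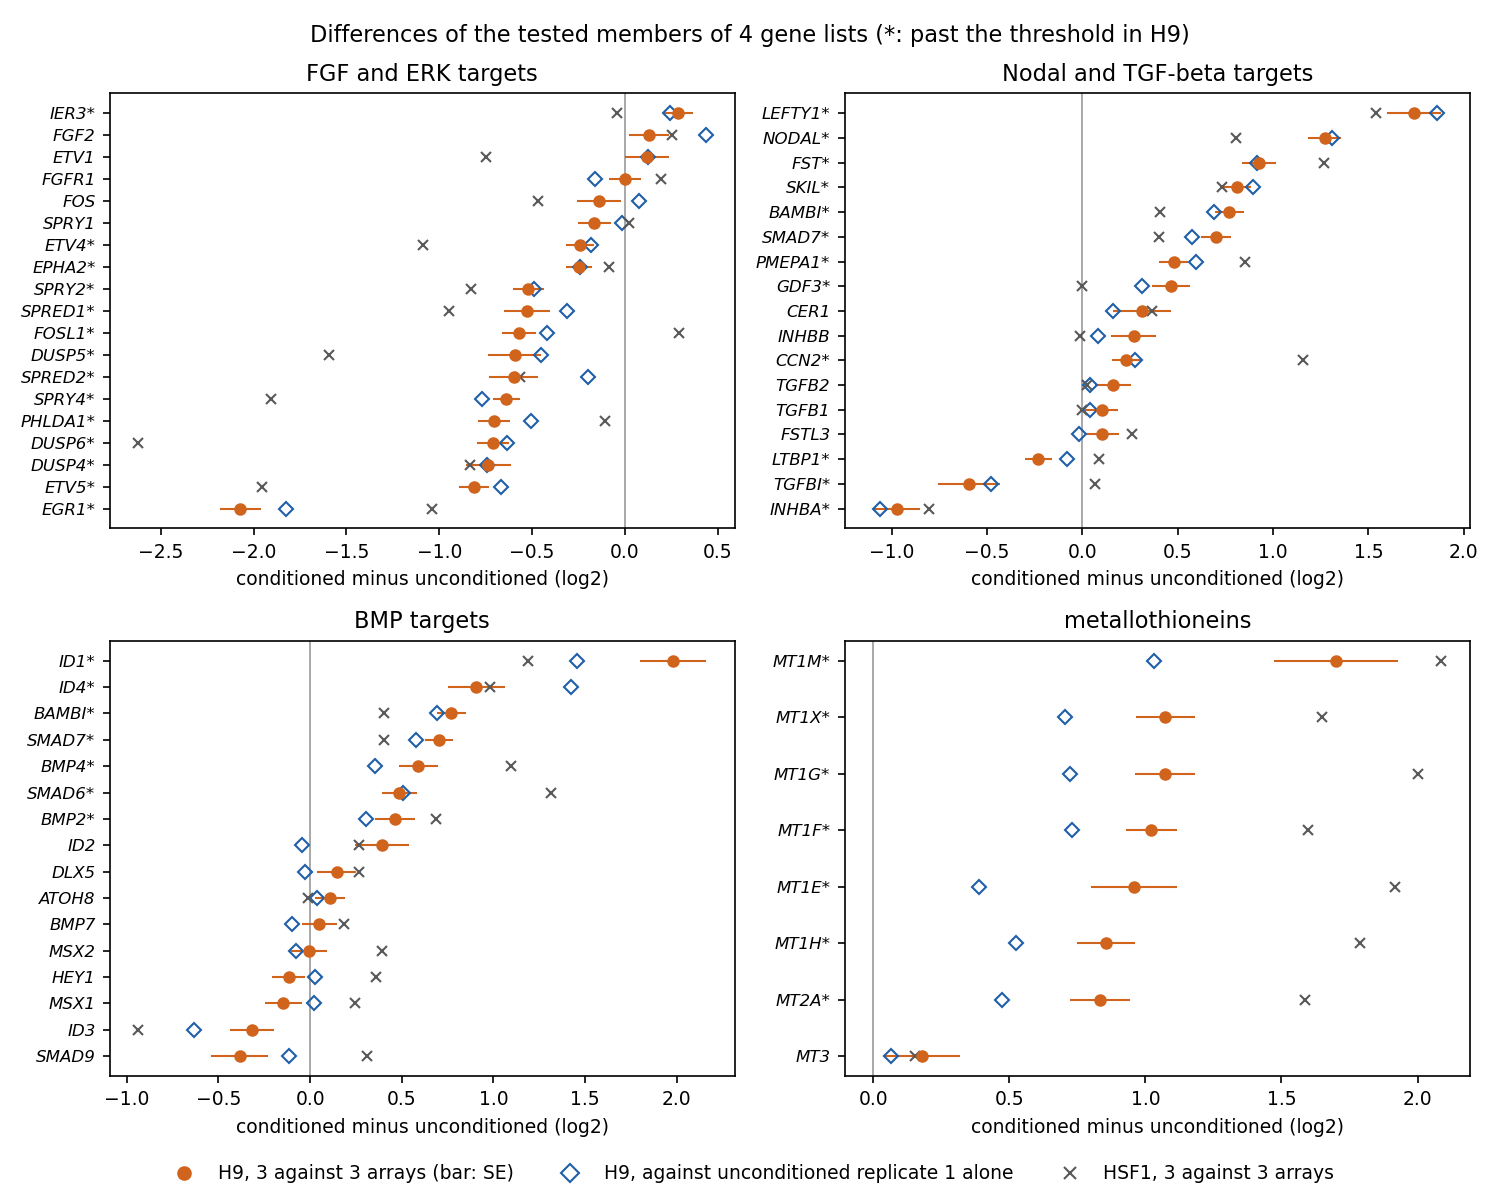
For each tested member of the lists of FGF and ERK targets, Nodal and TGF-beta targets, BMP targets and metallothioneins, the difference between conditioned and unconditioned medium (log2) is plotted for H9 with its SE (circles), for H9 against unconditioned replicate 1 alone (diamonds) and for HSF1 (crosses). Stars mark genes past the threshold in H9: 13 of 19 FGF and ERK targets lie to the left with a star, and 7 of 8 metallothioneins lie to the right with crosses beyond the circles.

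Genes of the core pluripotency network that passed were mostly higher, by small amounts. Of 18 tested members 7 rose and 1 fell, where 3.45% of all genes were called higher and 13% lower. The list median was 0.10 against -0.03 over all genes. NANOG read 11.78, 11.90 and 11.79 in unconditioned and 12.29, 12.14 and 12.14 in conditioned medium. The groups did not overlap, and the difference was 0.37 (SE 0.069, adjusted p = 0.00187). SOX2, its partner in the network, read 12.53, 12.60 and 12.54 and 12.79, 12.88 and 12.85, a difference of 0.28 (SE 0.053, adjusted p = 0.00199). PRDM14 had the largest rise of the list, and TERF1, a telomere-binding protein, GDF3 and DPPA2 differed by 0.36, 0.47 and 0.26. SALL4, a zinc-finger factor, passed at 0.61 (adjusted p = 0.043) with overlapping groups, 10.77, 10.25 and 9.80 against 10.59, 10.72 and 11.34, and differed by 0.11 against replicate 1. LCK, a kinase found at the RNA level in these cells, fell by 0.25 (adjusted p = 0.0281), a call that ended when probe sets were averaged. Against unconditioned replicate 1 alone 4 members passed, PRDM14, NANOG, SOX2 and TERF1.

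Naive-state genes, those of the epiblast before implantation, included 5 rises and 0 falls in limma among 12 tested (7 and 0 at an unadjusted p under 0.05), with a median of 0.30. For this list and the primed-state list, the shares over all genes were 3.45% called higher and 13% called lower. FGF4 read 6.45, 6.22 and 6.43 and 7.15, 7.32 and 7.38 (difference 0.92, SE 0.10, adjusted p = 1.3e-05). KLF4, one of the reprogramming factors, read 6.73, 6.96 and 7.05 and 7.69, 7.76 and 7.85 (difference 0.85, SE 0.11, adjusted p = 0.000113). Over 17 alternatives FGF4 differed by 0.48 to 0.99 and KLF4 by 0.71 to 1.04. These 2 genes passed in each of 17 alternatives, whereas KLF17, TBX3 and SUSD2, with 0.43, 0.31 and 0.29, did not. Over the alternatives KLF17 differed by 0.36 to 0.46, TBX3 by 0.18 to 0.36 and SUSD2 by 0.02 to 0.34. TBX3 and SUSD2 lost the call when probe sets were averaged. The unconditioned means of all 12 genes lay between 4.84 and 6.91, near or below the array median. Primed-state genes included 1 rise and 4 falls among 17: CDH2, which encodes N-cadherin, differed by 0.61 (SE 0.080), and the homeobox gene HMX2, DUSP6, the WNT antagonist SFRP2 and SALL2 by -0.98, -0.71, -0.43 and -0.20. DUSP6 stands on this list and among the FGF and ERK targets.

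Genes of differentiated lineages passed at 2 of 9, 3 of 11, 3 of 14 and 3 of 16 tested in 4 lists, where 16.4% of all genes passed. In the trophoblast and amnion list TFAP2A and TFAP2C, transcription factors of surface ectoderm and trophoblast, rose, 2 of 9 tested. TFAP2A went from 4.68, 4.69 and 4.79 to 6.15, 6.41 and 6.50 (1.63, SE 0.15), starting below the array median, and TFAP2C from 7.95, 8.45 and 8.49 to 8.93, 9.24 and 9.19 (0.82, SE 0.12). Over 17 alternatives TFAP2A differed by 0.68 to 1.73 and TFAP2C by 0.54 to 1.16. Both passed in each of 17 alternatives, and KRT18, a simple-epithelium keratin, did not pass (-0.21, adjusted p = 0.0706). In the endoderm list HHEX, AFP and GATA4 rose, 3 of 11, with 1.04, 0.51 and 0.50, and with unconditioned means of 4.49, 6.94 and 5.97. HHEX and GATA4 thus started below the array medians. Of 14 genes of primitive streak and mesoderm SP5 and MESP1 rose (0.43 and 0.27) and SNAI2 fell (-0.81), and none of these 3 passed against replicate 1 alone. Of 16 neuroectoderm genes SIX3 rose (0.53), and FABP7, whose protein carries fatty acids in neural progenitors, and ZNF521 fell. FABP7 read 9.59, 9.14 and 9.44 and 8.56, 8.65 and 8.59. Unconditioned replicate 1 was the highest array, and the difference was -0.79 (SE 0.10, adjusted p = 5.3e-05), with -0.45 for ZNF521. Of 12 WNT targets SFRP1, APCDD1 and SFRP2, all 3 of them inhibitors of WNT signalling, fell by 0.90, 0.67 and 0.43, and SP5 rose. SFRP1 read 12.89, 12.94 and 13.05 and 12.03, 12.06 and 12.10 (SE 0.054, adjusted p = 3.8e-08), but only 2 of its 4 probe sets agreed in direction and their mean, -0.25, did not pass. Averaged in this way GATA4, MESP1 and SIX3 lost the call as well.

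Of 20 interferon response genes 7 fell and 1 rose, with a median of -0.16, where 13% of all genes were called lower and 3.45% higher. The falls were those of genes of antigen processing, PSMB9, PSMB8 and TAP1 (-0.60, -0.45 and -0.54), and of the antiviral genes BST2, MX1, IFIT1 and IFI6 (-0.58, -0.55, -0.52 and -0.50). PSMB9 read 7.21, 7.33 and 7.48 in unconditioned and 6.66, 6.80 and 6.77 in conditioned medium (SE 0.11, adjusted p = 0.00172), without overlap. IFI6 read 7.78, 7.25 and 7.73 and 6.78, 7.17 and 7.31, with overlap. IFITM1, a membrane protein that blocks virus entry, rose from 12.005, 11.86 and 12.15 to 12.31, 12.51 and 12.54 (0.45, SE 0.078, adjusted p = 0.00112). Against unconditioned replicate 1 the list median was -0.17, and 3 of the 8 calls held. Of 17 p53 targets 6 fell and 0 rose in limma (11 and 0 at an unadjusted p under 0.05, where 3812 of the 16572 genes were lower and 1541 higher), with a median of -0.20; 13% of all genes were called lower and 3.45% higher. Beside FAS these were GDF15 (-0.64), SESN1 (-0.63), CDKN1A, the cell cycle inhibitor p21 (-0.46), TP53I3 (-0.36) and SESN2 (-0.30). CDKN1A read 9.23, 9.55 and 9.74 and 8.99, 9.06 and 9.08, and against replicate 1 alone it differed by -0.19 and did not pass. Averaged over all probe sets GDF15 and SESN2 lost the call, with GDF15 at -0.12.

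Among stress pathways, 7 of 17 genes of the integrated stress response fell and 2 rose, with a median of -0.15, where 13% of all genes were called lower and 3.45% higher. STC2, ATF3, ASNS, PHGDH, SESN2, CTH and CEBPB differed by -0.57, -0.40, -0.34, -0.30, -0.30, -0.27 and -0.22, and VLDLR and DDIT4 by 0.44 and 0.58. STC2, a secreted glycoprotein, read 9.43, 9.46 and 9.44 and 8.85, 8.82 and 8.95 with tight groups (SE 0.076, adjusted p = 0.000113), and of the 9 calls 3 held against replicate 1 alone. Averaged over all probe sets ATF3 differed by 0.0031, and ASNS, SESN2, HERPUD1, SEL1L, CARS1, YARS1 and SARS1 lost the call, as ATF3 did. In the unfolded protein response HERPUD1 and SEL1L, of the pathway that degrades misfolded proteins, fell (-0.44 and -0.28) and the chaperone HSP90B1 rose (0.49), 3 of 17, a share near the 16.4% of all genes. None of 11 heat shock genes passed in limma (0 higher and 4 lower at an unadjusted p under 0.05), the lowest p values being those of BAG3, HSPA4L and HSP90AB1 at -0.19, -0.27 and -0.15 (adjusted p = 0.0952, 0.0997 and 0.124). Of 18 amino acid transporters and tRNA synthetases the synthetases CARS1, YARS1 and SARS1 fell (-0.35, -0.29 and -0.21), and SLC7A5, a transporter of large neutral amino acids, rose (0.54). Of 16 immediate early genes 5 fell, EGR1, JUN, IER2, KLF10 and ATF3 (-0.47, -0.46, -0.46 and -0.40 for the last 4), and CCN2 and IER3 rose.

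In central energy metabolism 6 of 21 glycolysis genes, 3 of 14 genes of lactate and pyruvate handling, 2 of 19 of the TCA cycle, 1 of 41 of oxidative phosphorylation and 4 of 14 of the pentose phosphate and serine pathway passed, where 16.4% of all genes did. Most of these calls were lost without 1 or another array. LDHA, the lactate dehydrogenase A gene, read 12.84, 12.98 and 12.997 in unconditioned and 13.16, 13.05 and 13.04 in conditioned medium, a difference of 0.15 (SE 0.059, adjusted p = 0.101) that did not pass. HK2, a hexokinase that starts glycolysis, read 10.95, 11.09 and 11.03 and 11.01, 10.95 and 10.94, with overlapping groups (-0.057, SE 0.066, adjusted p = 0.568). PDK1, a kinase that inhibits the pyruvate dehydrogenase complex, read 10.32, 10.84 and 10.70 and 10.34, 10.19 and 10.02. It passed at -0.44 (SE 0.13, adjusted p = 0.0319), yet replicate 1 lay inside the conditioned range, and the difference against it was -0.14 (adjusted p = 0.732). Of 21 glycolysis genes TPI1, PKM, PFKFB4 and ALDOC rose (0.23, 0.27, 0.29 and 0.42) and PFKM and PFKP fell (-0.23 and -0.22), with a median of -0.01. None of these 6 passed against replicate 1 alone, and each lost the call without at least 1 single array. Of 14 genes of lactate and pyruvate handling PDK1, PDP1 and PC fell. PDP1 and PC differed by -0.34 and -0.31, and all 3 calls ended against replicate 1. In the TCA cycle DLD and IDH2 fell, 2 of 19 (-0.39 and -0.39). DLD differed by -0.11 against replicate 1, and IDH2, the mitochondrial isocitrate dehydrogenase, kept its call there at -0.42; SUCLG2 did not pass (-0.23, adjusted p = 0.0625). In oxidative phosphorylation NDUFB10 was called, 1 of 41 (0.41), with overlapping groups and a difference of 0.035 against replicate 1, and COX5A and NDUFS1 came next without passing (0.13 and -0.23, adjusted p = 0.0523 and 0.0599). Of 14 genes of the pentose phosphate and serine pathway PHGDH, MTHFD1, MTHFD2 and TKT fell (-0.30, -0.23, -0.21 and -0.18), and against replicate 1 none passed. GAPDH and ACTB, common reference genes, differed by 0.082 (adjusted p = 0.336) and -0.11 (adjusted p = 0.121), and averaged over its probe sets ACTB differed by 0.080. The calls of TPI1, PFKP, PDK1, PDP1, DLD, NDUFB10 and TKT ended under that averaging.

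Cholesterol synthesis genes lay on the higher side. Of 19 tested members 0 had a difference below 0 as deposited (2 of 19 with arrays shifted to a common median), 8 rose and 0 fell in limma (13 and 0 at an unadjusted p under 0.05), and the list median was 0.19 as deposited and 0.23 against unconditioned replicate 1. Over all genes 3.45% were called higher, and 9084 of 16572 lay below 0. The differences were small: EBP 0.54, INSIG1 0.36, HSD17B7 0.35, STARD4 0.29, MVK 0.28, DHCR7 0.25, LSS 0.25 and MSMO1 0.25. INSIG1, which holds the sterol regulators in the endoplasmic reticulum, read 10.58, 10.96 and 10.71 and 11.29, 11.19 and 10.84. LSS, the enzyme that forms lanosterol, read 11.14, 11.08 and 11.18 and 11.35, 11.38 and 11.42 (SE 0.057, adjusted p = 0.00795), with groups that did not overlap but with 0.046 as the mean of its 3 probe sets. Each of the 8 calls ended under at least 1 of 17 alternatives (EBP and LSS when probe sets were averaged), and 3 held against replicate 1. Of 15 genes of fatty acid synthesis and desaturation ACSS2, an acetyl-CoA synthetase, FASN, the fatty acid synthase, and FADS2 rose (0.53, 0.34 and 0.28) and ME1, the malic enzyme, fell (-0.60). ACSS2 read 8.16, 8.13 and 8.21 and 8.78, 8.64 and 8.66 (SE 0.073, adjusted p = 0.00015), and ACSS2 and ME1 passed in each of 17 alternatives, whereas FADS2 lost its call when probe sets were averaged. Hypoxia response genes went both ways, 6 up and 4 down of 23. BNIP3, BHLHE40, DDIT4, ALDOC, EGLN3 and KDM3A differed by 0.72, 0.62, 0.58, 0.42, 0.41 and 0.27, and ADM, STC2, PDK1 and CA12 by -0.86, -0.57, -0.44 and -0.27, where KDM3A and PDK1 lost the call when probe sets were averaged. ADM, which encodes the vasodilator peptide adrenomedullin, read 11.46, 11.52 and 11.53 and 10.73, 10.60 and 10.60 (SE 0.062, adjusted p = 2.1e-07). The gap between its groups was several times the range of either.

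Of 34 genes of DNA replication and mitosis 4 fell, a share near the 13% of all genes called lower: BUB1, TOP2A, CENPF and CDC20 (-0.35, -0.28, -0.27 and -0.21). In all 30 of the 34 lay below 0 (23 after another quantile normalization), as did 9084 of the 16572 genes tested, and the median was -0.10. Against replicate 1 the list median was 0.02 and none of the 4 passed, and averaged over all probe sets TOP2A and CENPF lost the call. Genes of the extracellular matrix and adhesion went both ways, 5 up and 8 down of 27. ITGB5, an integrin subunit, read 10.72, 10.92 and 10.90 and 11.65, 11.49 and 11.54 (0.72, SE 0.064, adjusted p = 2.1e-06), and SPP1, CDH2, FN1 and CLDN6 differed by 0.67, 0.61, 0.43 and 0.39. The basement membrane genes NID2, COL4A6, COL4A2, LAMA1 and HSPG2 differed by -0.64, -0.60, -0.30, -0.44 and -0.30, and COL5A1, SPARC and ITGA6 by -0.60, -0.35 and -0.46. Among these falls NID2, COL4A6 and COL5A1 held the call against replicate 1, and COL4A2, LAMA1 and HSPG2 lost it when probe sets were averaged. In the list of 26 tested fibroblast markers 6 rose and 6 fell with a median of 0.05, where 3.45% of all genes were called higher and 13% lower: IGFBP7, TAGLN, COL5A2, FN1, CDH11 and PDGFRA were higher, and ACTA2, COL5A1, FBN1, COL1A1, COL1A2 and SPARC lower. IGFBP7 differed by 0.96 (SE 0.091) and ACTA2, the smooth muscle actin gene, by -0.90 (SE 0.10), and COL1A1, COL1A2, FBN1, TAGLN and PDGFRA lost the call when probe sets were averaged. Of 24 secreted growth factors and their binding proteins FGF8, FGF13 and FGF19 rose (0.59, 0.52 and 0.35), and the chemokines CXCL5 and CXCL6, GDF15, HBEGF and IGFBP4 fell (-0.67 for CXCL6, -0.36 for HBEGF and -0.26 for IGFBP4). HBEGF lost its call when probe sets were averaged.

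**Figure D4:**
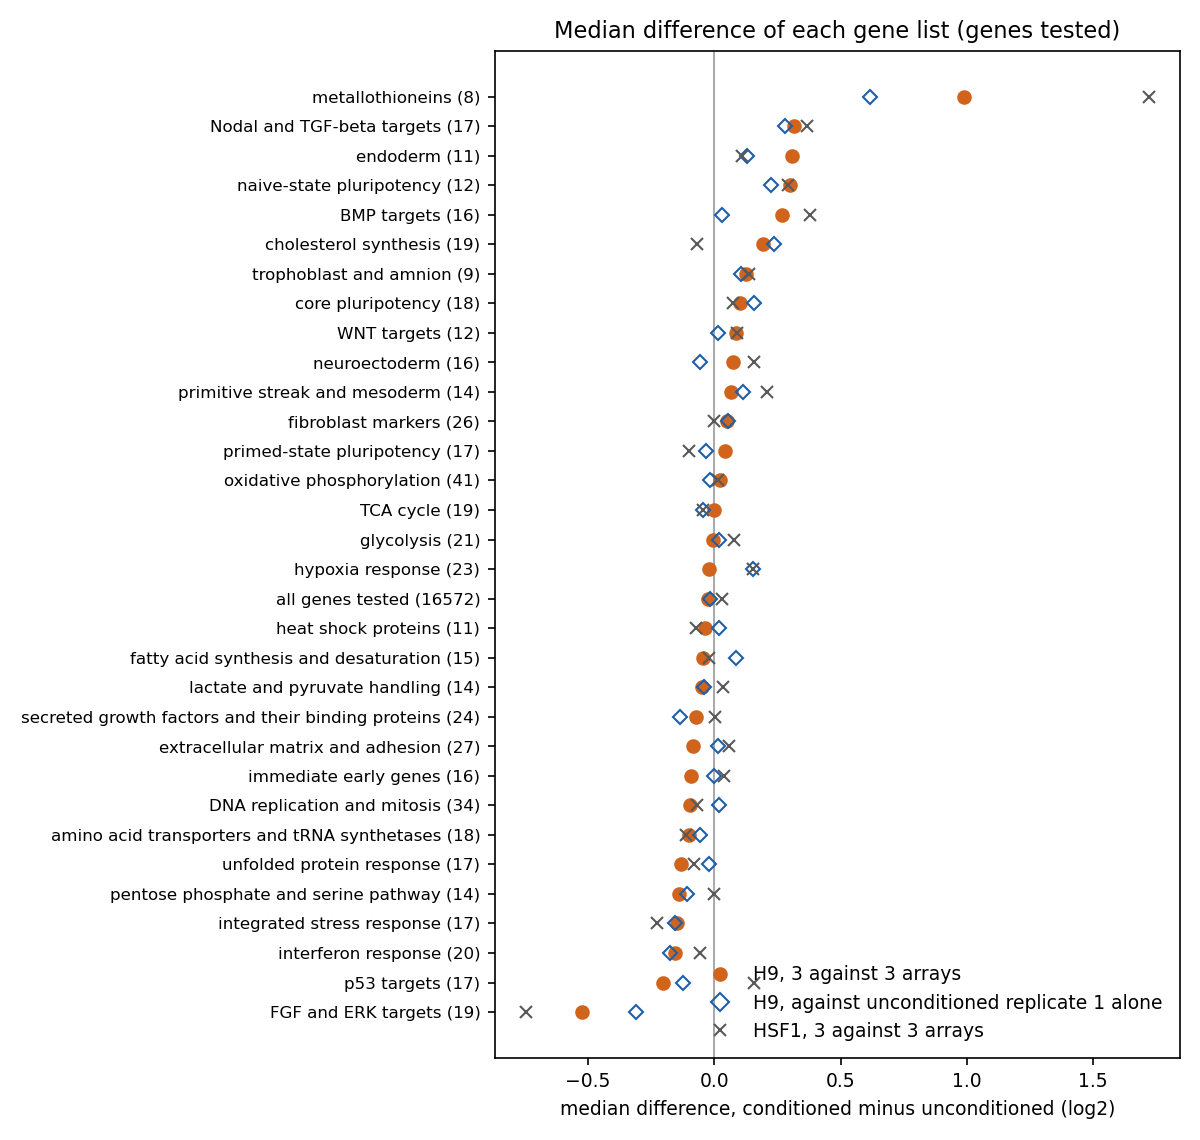
The median difference between conditioned and unconditioned medium (log2) over the tested genes of each of 31 lists, and over all genes, is plotted for H9 (circles), for H9 against unconditioned replicate 1 alone (diamonds) and for HSF1 (crosses), with the number of genes tested in brackets. Metallothioneins lie highest at 0.99 and FGF and ERK targets lowest at -0.53, the diamonds of both lie nearer to 0, and cholesterol synthesis is above 0 in H9 and below 0 in HSF1.

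The same change of medium in HSF1 cells, measured on 6 arrays of its own, called 3040 genes (18.3%), 1420 higher (8.57%) and 1620 lower (9.78%). That count was 1853, 1997 and 1983 without unconditioned replicate 1, unconditioned replicate 3 and conditioned replicate 3 of HSF1. Of the 572 genes higher in H9, 184 were called higher and 14 lower in HSF1, and of the 2148 lower in H9, 706 were called lower and 66 higher. Of the rises of at least 2-fold in H9, 22 of 31 were called higher and 1 lower, and of the falls 38 of 44 were called lower and 0 higher in limma. For the 12 largest changes in each direction, 11 rises and 11 falls were called in the same direction. CUZD1 differed by -2.08 in HSF1, KCNJ2 by -1.60, CXCL5 by -1.82, CAV1 by 2.11 and LEFTY1 by 1.54. The exceptions were DACT1 and DAZL, which differed by 0.082 (adjusted p = 0.749) and 0.15 (adjusted p = 0.59) in HSF1.

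The difference between the lines was tested as a contrast of its own, and 1281 genes (7.73%) passed, a count that was 3282, 729, 786 and 796 without H9 unconditioned replicates 1 and 3 and conditioned replicates 1 and 2. FGF and ERK targets were mostly lower in both lines, with medians of -0.53 in H9 and -0.75 in HSF1 and 9 of 19 members past the test of the line difference, in both directions. DUSP6 differed by -2.62 in HSF1, from 11.74, 11.55 and 11.55 to 9.16, 8.96 and 8.87, and its fall in H9 was smaller by 1.91 (SE 0.12, adjusted p = 8.0e-07). SPRY4 and ETV5 had the same order, with -1.91 and -1.95 in HSF1 and line differences of 1.27 and 1.14. EGR1 had the opposite order: it differed by -1.04 in HSF1, and the line difference was -1.03 (SE 0.15, adjusted p = 0.00136). Metallothioneins rose more in HSF1, where the list median was 1.72 and 7 of 8 rose, and 6 of the 8 passed the test of the line difference. MT1G rose by 2.00 in HSF1, from 9.84, 9.87 and 9.82 to 11.95, 11.90 and 11.68, and in H9 from 12.47, 11.94 and 11.94 to 13.22, 13.23 and 13.12, with a line difference of -0.93. D21S2088E fell in HSF1 (-1.50) with -0.22 in H9, which did not pass. CYP26A1, which degrades retinoic acid, read 7.50, 7.71 and 7.92 and 7.36, 7.73 and 7.91 in H9, with overlap, and rose by 1.86 in HSF1 (line difference -1.90, SE 0.20, adjusted p = 8.3e-05). STOM, an integral membrane protein, and DIAPH2, a formin, rose in HSF1 by 1.41 and 1.27, against 0.14, which did not pass, and 0.37 in H9. Averaged over its 3 probe sets DIAPH2 differed by 0.058 in H9 and lost the call. OPTN, an autophagy receptor, fell in H9 from 9.68, 9.90 and 9.88 to 8.83, 8.94 and 8.83 (-0.95), with 0.092 in HSF1. In cholesterol synthesis 0 genes rose and 1 fell in HSF1 in limma, its list median was -0.07, and 5 of 19 genes passed the test of the line difference. Unconditioned replicates 2 and 3 of H9, with their high ACTB difference, enter each of these line differences. When the fit also held the ACTB difference, 891 genes passed the test of the line difference. The part of RNA quality in the line differences was not tested.

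H9 cells grown on the fibroblasts themselves were measured on separate arrays, 1 with and 1 without feeders in each treatment, so their differences have no replicate check, and mouse RNA from the feeders and transcripts of H9 itself cannot be told apart. With DMSO, 40.8% of all genes tested were higher on feeders, with a median difference of -0.14. Of the 31 rises of at least 2-fold in conditioned medium, 25 were higher and 6 lower on feeders, with a median of 1.39, and of the 44 falls 29 were lower and 15 higher, with a median of -0.57. Of the 12 largest rises 10 had the same direction: ANXA1 was higher by 6.01 on feeders, MACC1-OT1 by 4.47, CAV1 by 3.94, LEFTY1 by 3.21 and NODAL by 3.06. MT1M and STOX2 went the other way, at -2.17 and -0.23, and with the inhibitor the difference of MT1M was 1.13. Of the 12 largest falls 5 had the same direction, CUZD1 (-4.04), MAP2 (-3.45), DAZL (-2.39), APOBEC3B (-1.29) and LRAT (-0.069). EGR1, FAS, CXCL5, IFIH1, KCNJ2, PTX3 and ATP8B3 were higher on feeders, EGR1 by 2.59 with DMSO and by 2.27 with the inhibitor. CUZD1 differed by -0.55 with the inhibitor. List medians on feeders with DMSO were -0.37 for FGF and ERK targets, 0.80 for Nodal and TGF-beta targets, 0.67 for BMP targets, -1.36 for metallothioneins and -1.77 for cholesterol synthesis. The last 2 lists therefore had a negative median on feeders and a positive one in conditioned medium.

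**Figure D5:**
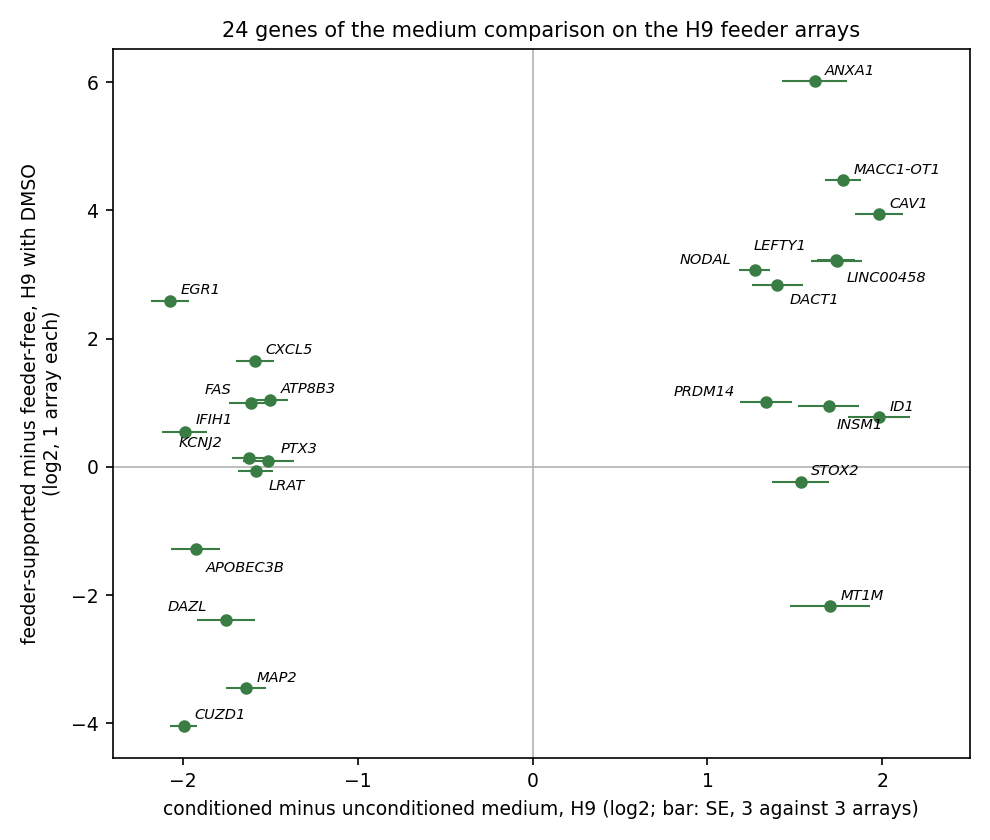
Shown are the 12 largest rises and 12 largest falls among genes with a mean of at least 7 in the higher group. The H9 difference between conditioned and unconditioned medium (log2, with its SE) is on the x axis. The y axis holds the difference between the feeder-supported and the feeder-free H9 array with DMSO (log2, 1 array each, no error). Of the rises 10 lie in the upper right with ANXA1 highest, while MT1M and STOX2 lie below 0, and of the falls 7, EGR1 among them, lie above 0.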

How the data were processed

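RNA of 24 cultures was measured on Affymetrix U133 Plus 2.0 arrays. The authors deposited log2 values for 54675 probe sets, made with RMA per the submitters' processing notes; its version is not given in the sources used here. Of the probe sets, 41097 name 1 gene, 1801 several and 11777 none, and 41043 matched a RefSeq gene by Entrez number. For a gene with several probe sets, that of the highest level averaged over the 24 arrays was used. Genes above 5 on at least 3 of the 12 medium arrays (16572) entered a linear model (limma 3.58.1, R 4.3.3), with 1 mean for each of 4 groups of 3 arrays, an intensity trend and Benjamini-Hochberg adjustment over all genes tested (threshold 0.05). The fit was checked on simulated data with 1 spread per gene, equal on all arrays. That check does not cover the uneven group of unconditioned H9 arrays.

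Groups came from the titles. Replicate numbers were not used to pair the arrays. Deviations of same-numbered arrays from their group means correlated at -0.27, 0.13 and -0.10 in H9. With 3 arrays a group and an uneven unconditioned group, these values cannot show whether the numbers pair. The gene lists and the rules for naming genes were chosen with earlier results of these data known. Named were the 12 largest rises and falls past the threshold whose groups did not overlap and whose higher group had a mean of at least 7, up to 3 genes of each list by p, the 4 smallest p values of the line difference in each direction, and SOX2, NANOG, LDHA, HK2, PDK1, ACTB and GAPDH. Other list members, among them all those past the threshold, were named after their values were seen. Alternatives changed normalization, filter, probe set, variance model, array weights, covariate, block and arrays used. Unnamed probe sets and those of several genes were left out.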

Additional observations from a re-analysis of the deposited data

Results flagged for a closer look

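Listed here are 34 named genes for which the effect of conditioned medium differed between H9 and HSF1, by the limma contrast of the 2 effects at an adjusted p under 0.05. The listing is not complete, since 5 of 19 cholesterol synthesis genes and 7 of 17 p53 targets, for example, also passed that contrast. Values below are the H9 effect minus the HSF1 effect on the log2 scale, each from 3 arrays a group. For DUSP6 it was 1.91, for SPRY4 1.27, for ETV5 1.14, for DUSP5 1.00 and for ETV4 0.85. For the other FGF and ERK targets listed here it was -1.03 (EGR1), -0.86 (FOSL1) and -0.60 (PHLDA1), while 9 of 19 members of that list passed in all. Metallothioneins rose less in H9, with -0.57 for MT1F, -0.58 for MT1X, -0.93 for MT1G, -0.96 for MT1E, -0.93 for MT1H and -0.75 for MT2A. In the Nodal and BMP lists the values were 0.47 (NODAL), -0.93 (CCN2), -0.37 (PMEPA1), -0.83 (SMAD6) and -0.50 (BMP4). Among the largest changes in H9 they were -1.34 (MACC1-OT1), 1.32 (DACT1), -0.83 (IFIH1), -1.90 (DAZL), -0.73 (MAP2), 1.24 (LRAT) and -0.89 (ATP8B3). D21S2088E, STOM, OPTN, DIAPH2 and CYP26A1 had 1.27, -1.27, -1.05, -0.90 and -1.90, and TERF1, TAP1 and LCK 0.48, -0.48 and 0.57. Unconditioned H9 replicates 2 and 3, with an ACTB 3-prime to 5-prime difference of 3.25 and 2.89, enter each value. With that difference as a covariate, 891 genes passed the contrast of the 2 effects, against 1281 without it. Values of that fit are not given here for the listed genes, and the part of RNA quality was not tested.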

How the results depend on the processing

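Of 182 named genes past the threshold in H9, 85 passed in the same direction under each of 17 alternatives, and 97 lost the call under at least 1: 86 without unconditioned replicates 2 and 3, 54 with the ACTB covariate, 41 with the mean of all probe sets and 63 in a fit of the 6 H9 arrays. The count of 2720 genes in H9 became 4277 with array weights, 1469 with the ACTB covariate, 1151 with the 6 H9 arrays and 656 without both unconditioned arrays, and leaving out 1 array gave 1328 to 5295. The line difference, 1281 genes, became 3113 with array weights and 535 without both arrays, and 729 to 3282 without 1 array. HSF1, 3040 genes, became 4770 with array weights and 1853 to 3895 without 1 array. Of the list genes tested, 164 were called (79 higher and 85 lower), 101 with the 6 H9 arrays, 84 without both arrays and 109 to 233 without 1 array. With a block for the replicate number, which the main fit does not use, the counts were 1934 in H9 and 2390 in HSF1. They were 757 for the line difference and 127 for list genes, and 40 named genes lost the call.

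Signs turned for CYP26A1, not called in H9, from -0.044 (-0.17 to 0.11 without 1 array) to 0.073 after another quantile normalization, 0.044 with the ACTB covariate, 0.058 without unconditioned replicate 3, 0.11 without conditioned replicate 1 and 0.16 without both arrays. They also turned for ACTB (0.080), LTBP1 (0.0031) and ATF3 (0.0031) with the mean of all probe sets, and for HK2 (0.017) and GAPDH (-0.040) without both arrays. The causes were not tested. Signal near background limits INSM1, ANXA1, DACT1, TFAP2A, HHEX, GATA4 and the naive-state genes.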
